A study of Homo sapiens with 12 samples.

Results

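Clathrin-mediated endocytosis in these neurons was examined through 10 genes: *CLTC*, *CLTA* and *CLTB* (clathrin), *AP2A1*, *AP2B1* and *AP2M1* (the AP2 adaptor), *DNM1*, *DNM2* and *DNM3* (dynamins) and *AMPH* (amphiphysin). They were chosen by symbol, and each symbol matched 1 row in both deposited tables, so 10 of the 16406 genes tested in motor neurons, of the 19016 tested in excitatory neurons and of the 16093 tested in both are described. RNA-seq with ribosomal RNA depletion compared neurons carrying a lentiviral shRNA against *SMN1* and *SMN2* (*SMN*-KD) with neurons carrying a scrambled shRNA (SCR) from the same doxycycline-inducible vector. Motor neurons (iMNs) came from 1 human iPSC line with a Td-Tomato reporter under the HB9 promoter, sorted for that reporter. Excitatory glutamatergic neurons (i3Ns) came from the H1 human embryonic stem cell line through induced NGN2, a transcription factor that drives stem cells towards a neuronal fate. Each cell type had 3 SCR and 3 *SMN*-KD libraries, and all 12 libraries came from cells that carried an shRNA. Cell type, stem cell line and differentiation protocol cannot be told apart in this design, and the labels do not say whether the 3 libraries of a group came from separate differentiations, so the errors may be technical.

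Clathrin-mediated endocytosis takes membrane and receptors in from the cell surface and, at the nerve terminal, recovers synaptic vesicle membrane after release. The AP2 adaptor binds membrane lipids and the tails of cargo proteins, clathrin heavy and light chains assemble on it into a curved coat, amphiphysin senses the curved neck and recruits dynamin, and dynamin cuts the vesicle free. The coat is then taken off by the chaperone HSC70 and auxilin, and calcineurin dephosphorylates the endocytic proteins when calcium enters the terminal.

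The deposited tables hold no value per library. The level given for a group is therefore a mean over 3 libraries, derived from each gene's mean normalized count over all 6 libraries (counts divided by size factors) and its log2 fold change, and the error is the standard error (SE) of that fold change. For the 10 genes this error corresponded to a spread between libraries of a group of 2.24% to 4.06% in iMNs and 2.25% to 5.80% in i3Ns. A gene was said to rise or fall when its adjusted p in the DESeq2 Wald test, over all genes of its table, was under 0.01, and was called a differentially expressed gene (DEG) when its absolute log2 fold change was also above 1. Total counts per library are not given in the tables. The 10 genes were measured at mean normalized counts of 4121 to 50902 in iMNs and 1812 to 42657 in i3Ns.

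The knockdown and the cell types were checked first. The summed derived means of the 5 identifiers annotated as *SMN1* or *SMN2* were 1923 in SCR and 424 in *SMN*-KD iMNs, a change of -77.9%, and 1839 in SCR and 318 in *SMN*-KD i3Ns, a change of -82.7%. All 10 pan-neuronal markers were listed in both tables, with sums that went from 528274 in SCR to 466123 in *SMN*-KD iMNs and from 1115564 to 812328 in i3Ns. All 8 motor neuron markers were listed in both tables, so this list did not set the iMN table apart. In the iMN table *MNX1*, the gene called HB9, had a mean normalized count of 430. There *ISL1* stood at 1663, *CHAT* at 533, *ISL2* at 70.6 and *LHX3* at 15.1. Of 7 glutamatergic markers, 5 were listed in that table. *CUX2* stood at 1734, *SLC17A6* at 593, *NEUROD1* at 88.8, *SLC17A7* at 50.1 and *TBR1* at 10.2. In the i3N table *SLC17A6* stood at 11237, *SLC17A7* at 6490, *NEUROD1* at 4039, *CUX2* at 2033, *TBR1* at 1801 and *NEUROD2* at 1215. Of these 6 glutamatergic markers, 4 fell and 1 rose after knockdown, with log2 fold changes of -3.87 for *TBR1* and 2.42 for *NEUROD1*. Motor neuron markers there stood at 2279 for *MNX1*, 14299 for *ISL1*, 527 for *CHAT*, 3558 for *ISL2* and 230 for *LHX3*. The remaining motor neuron markers were *SLC5A7*, *SLC18A3* and *PRPH*. They stood at 8460, 3115 and 7288 in the iMN table, and at 2472, 1865 and 5833 in the i3N table. The tables were normalized separately, so these counts are to be read within a table. Markers of other cells moved with the knockdown. In i3Ns all 9 mesenchymal markers were listed and their sum went from 12296 to 2096, that of all 7 proliferation markers from 3301 to 1615, that of 5 of 9 glial markers from 2011 to 897, and that of 4 of 5 pluripotency markers from 1644 to 7258. Within these lists, 5 mesenchymal markers fell and 2 rose, 6 proliferation markers fell and 0 rose, and 2 glial markers fell and 1 rose. *LIN28A*, at a mean normalized count of 4216, dominated the pluripotency sum. *DPPA4* (193) also rose, while *NANOG* and *POU5F1* did not pass. In iMNs 7 of 9 mesenchymal markers went from 2150 to 3718 and 4 of 7 proliferation markers from 763 to 914, of which *PCNA* alone passed, while *TOP2A*, *CCNB1* and *MKI67* did not. *GFAP*, *AQP4*, *SOX10* and *TDGF1* were listed in neither table, and the part of these cells in the results below was not tested. Fewer cells of a type and less RNA per cell cannot be told apart in such bulk libraries.

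One stretch of sequence bears on the comparison for 1 of the 10 genes and is shown for that reason. An shRNA can lower other transcripts through 7-base matches to its guide strand, so the 3′-UTRs of the main transcripts (MANE Select, GENCODE 44 on GRCh38) were searched, on the transcript strand, for CTAATAA and GCTAATA, which pair with guide bases 2-8 and 3-9 of the *SMN* shRNA, and for CTAGTAA and ACTAGTA, which pair with the same bases of the scrambled shRNA. Both matches of a guide overlap by 6 bases. None of the 10 genes held a match to the *SMN* shRNA, in the main or in any annotated 3′-UTR, whereas 19.9% of the 12010 genes with a 3′-UTR and a mean count (normalized) of 100 or more did so in the iMN table. *DNM3* alone held a match to the scrambled shRNA, which 12.1% of those genes held. It lies in the last exon (21 of 21), at base 3126 of a 3′-UTR of 4876 bases, on the plus strand of GRCh38 chr1:172410957-172410983, with the 7 matching bases in capitals.
*DNM3* 3′-UTR: tggcatatacCTAGTAAgtatgtttct
Among genes with a 3′-UTR of at least 4000 bases, 35.6% in the iMN table and 35.8% in the i3N table held a match to the scrambled shRNA. The median log2 fold change of all genes with such a match was 0.08 in iMNs and 0.19 in i3Ns, against -0.00094 and -0.01 without one. A match is a description of the letters in the window, and its part in the level of *DNM3* was not tested.

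The members spanned a wide range of levels within each table. Levels were compared as mean normalized counts per kb of the main transcript, within a table only. In iMNs the order was *AP2B1* (8930 per kb), *AP2M1* (8394), *CLTA* (5510), *CLTC* (5296), *CLTB* (4337), *DNM1* (2914), *AP2A1* (2843), *AMPH* (1308), *DNM2* (1134) and *DNM3* (1044). Of the 9 pairs of neighbours in that order, *CLTA* with *CLTC* and *DNM1* with *AP2A1* were closer than the joint spread between libraries. In i3Ns the order was *AP2B1* (7484), *AP2M1* (7297), *CLTA* (5200), *CLTC* (4486), *AP2A1* (2306), *CLTB* (2129), *DNM2* (2046), *DNM1* (1634), *DNM3* (573) and *AMPH* (562). Here *AP2B1* with *AP2M1*, *CLTB* with *DNM2* and *DNM3* with *AMPH* were closer than that spread. The first 4 places were held by the same genes in both cell types, and *AP2B1* stood at the 98.9th percentile of all genes per kb in both tables. The order depends on the transcript length used, since *AP2M1* took place 4 in both tables with the longest annotated transcript in place of the main one.

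**Figure D1:**
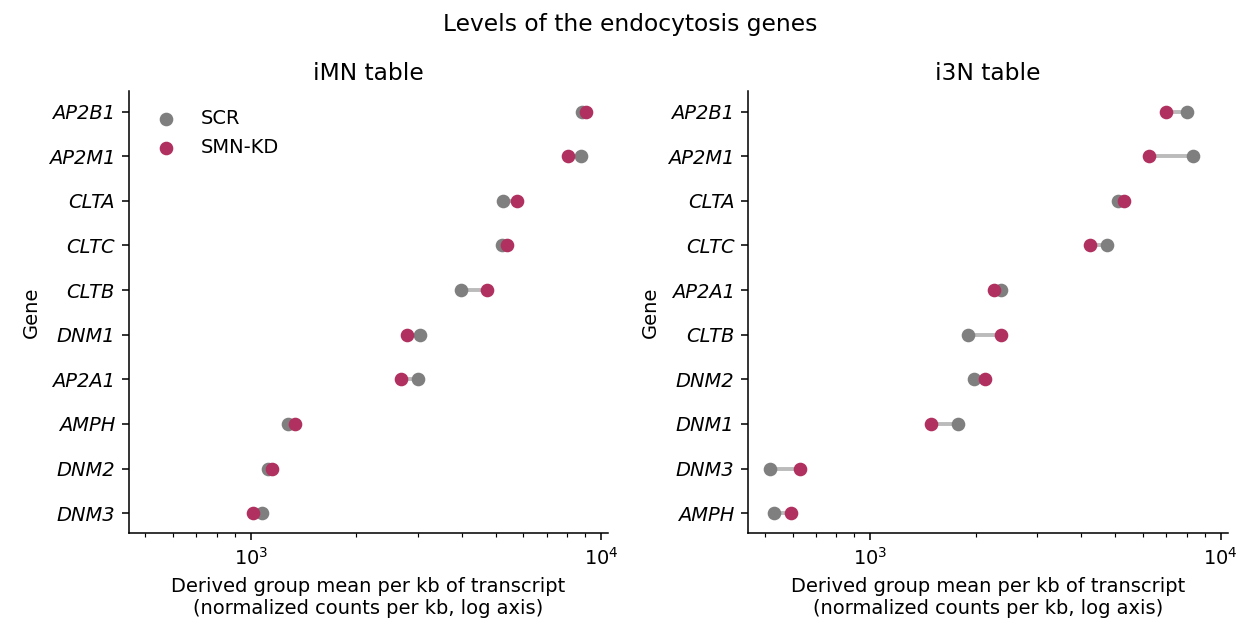
Levels of the 10 genes in the iMN table (left) and the i3N table (right), as derived group means in normalized counts per kb of the main transcript on a log axis, with SCR in grey and *SMN*-KD in red, ordered by the mean of all 6 libraries. *AP2B1* and *AP2M1* lead both panels, and *DNM3* and *AMPH* lie at the foot of the i3N panel at 573 and 562 per kb.

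After knockdown, the 10 genes changed by small amounts and not in 1 direction. In iMNs *AP2A1* and *AP2M1* fell, *CLTA* and *CLTB* rose, and the other 6 did not pass. Of all genes tested in iMNs, 18.7% fell and 17.1% rose. In i3Ns *CLTC*, *AP2B1*, *AP2M1* and *DNM1* fell, *CLTB*, *DNM2* and *DNM3* rose, and *CLTA*, *AP2A1* and *AMPH* did not pass. Of all genes tested in i3Ns, 25.7% fell and 22.8% rose. None of the 10 was a DEG in the deposited DESeq2 fit in either cell type, where 3.34% of genes in iMNs and 13.8% in i3Ns were. *CLTB* rose in both cell types and *AP2M1* fell in both.

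The 10 log2 fold changes ran from -0.17 to 0.25 in iMNs and from -0.41 to 0.32 in i3Ns. Their median absolute log2 fold change was 0.11 in iMNs, against 0.16 over all genes and 0.18 over the 7733 genes whose mean normalized count reached 1000, of which 53.7% passed in either direction. In i3Ns it was 0.18, against 0.32 over all genes and 0.30 over the 7767 such genes, of which 70.6% passed. The signed median was 0.04 in iMNs and -0.0068 in i3Ns, against 0.0013 and 0.01 over all genes.

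**Figure D2:**
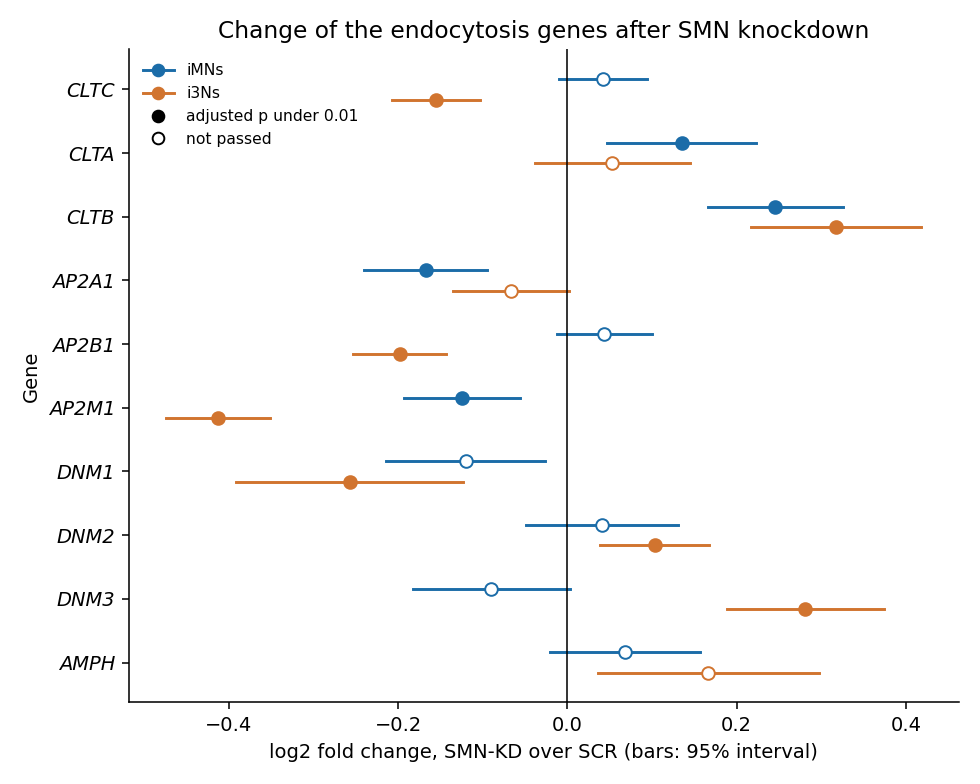
Log2 fold change (*SMN*-KD over SCR, x axis) of each gene (y axis) in iMNs (blue) and i3Ns (orange), with 95% intervals from the standard errors; filled points passed an adjusted p of 0.01 and open points did not. *AP2M1* in i3Ns lies farthest from 0, at -0.41, and the points of *CLTC*, *AP2B1* and *DNM3* lie on opposite sides of 0 in the 2 cell types.

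*CLTC* encodes the clathrin heavy chain, the main protein of the coat (chr17:59619684-59696956, plus strand, GRCh38). Its derived mean was 43674 in SCR and 44966 in *SMN*-KD iMNs, and 39559 in SCR and 35520 in *SMN*-KD i3Ns. It fell by 10.2% in i3Ns (95% interval of the change -13.4% to -6.92%), with a log2 fold change of -0.16 (SE 0.026, DESeq2 adjusted p = 2.30e-08). In iMNs it did not pass, and the log2 fold change was 0.04 (SE 0.026, DESeq2 adjusted p = 0.196), with an interval of -0.67% to 6.72%. *CLTC* shares 123 exonic bases with *PTRH2* on the opposite strand, and strandedness of the counting is not given in the sources used here.

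The light chains *CLTA* (chr9:36190856-36304781, plus strand) and *CLTB* (chr5:176392501-176416539, minus strand) bind the heavy chain and regulate coat assembly. The derived mean of *CLTB* went from 4520 to 5360 in iMNs and from 2159 to 2691 in i3Ns. It rose in both, by 18.6% in iMNs (log2 fold change 0.25, SE 0.041, DESeq2 adjusted p = 8.40e-09) and by 24.6% in i3Ns (0.32, SE 0.051, DESeq2 adjusted p = 2.22e-09), the highest log2 fold change of the 10 genes in each cell type. The derived mean of *CLTA* went from 5662 to 6217 in iMNs, a rise of 9.80% (log2 fold change 0.13, SE 0.045, DESeq2 adjusted p = 0.00710), and was 5502 and 5709 in i3Ns (0.05, SE 0.047, DESeq2 adjusted p = 0.354). The call of *CLTA* in iMNs was lost when fold changes were centred on the median gene. In i3Ns *CLTA* had a log2 fold change 0.26 below that of *CLTB* (95% interval of the difference -0.40 to -0.13), and in iMNs 0.11 below it (-0.23 to 0.01). *CLTB* made up 27.1% of the summed light chain level per kb in SCR i3Ns and 30.8% in *SMN*-KD i3Ns, a gain of 3.76 percentage points (SE 1.03), and 43.0% and 44.9% in iMNs, a difference of 1.90 points (SE 1.05). The ratio of light chain to heavy chain level per kb was 1.77 in SCR and 1.95 in *SMN*-KD iMNs, and 1.48 and 1.80 in i3Ns.

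AP2 is built of a large alpha subunit, here *AP2A1* (chr19:49767001-49807114, plus strand), a large beta subunit, *AP2B1* (chr17:35578046-35726413, plus strand), a medium mu subunit, *AP2M1* (chr3:184174689-184184214, plus strand), and a small sigma subunit. *AP2M1*, whose product recognises tyrosine-based sorting signals in cargo, had the largest change of the 10 genes in i3Ns. Its derived mean went from 16092 in SCR to 12088 in *SMN*-KD i3Ns and so fell by 24.9% (95% interval of the change -28.0% to -21.6%; log2 fold change -0.41, SE 0.031, DESeq2 adjusted p = 7.51e-39). In iMNs it went from 16906 to 15511 and fell by 8.25% (log2 fold change -0.12, SE 0.035, DESeq2 adjusted p = 0.00111). *AP2M1* was lower after knockdown in both cell types, and its fall was the larger in i3Ns.

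*AP2B1*, whose product binds clathrin, went from 45584 to 39729 in i3Ns and fell by 12.8% (log2 fold change -0.20, SE 0.028, DESeq2 adjusted p = 5.29e-12). In iMNs its derived means were 50131 and 51673 (0.04, SE 0.029, DESeq2 adjusted p = 0.218). *AP2A1*, whose product binds membrane lipids and accessory proteins, fell by 11.0% in iMNs, from 10096 to 8990 (log2 fold change -0.17, SE 0.037, DESeq2 adjusted p = 2.96e-05), and had derived means of 7921 and 7562 in i3Ns (-0.07, SE 0.035, DESeq2 adjusted p = 0.0930). *AP2A1* shares 249 exonic bases with *FUZ* on the opposite strand. Subunits of the complex therefore changed by unequal amounts within a table. In i3Ns the log2 fold change of *AP2A1* was 0.35 above that of *AP2M1* (95% interval 0.25 to 0.44) and that of *AP2B1* 0.21 above it (0.13 to 0.30). In iMNs the log2 fold change of *AP2B1* was 0.17 above that of *AP2M1* (0.08 to 0.26) and that of *AP2A1* was 0.21 below that of *AP2B1* (-0.30 to -0.12), while that of *AP2A1* minus that of *AP2M1* was -0.04 (-0.14 to 0.06), which did not pass.

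The level of *AP2B1* relative to *AP2M1* per kb was 1.00 in SCR and 1.13 in *SMN*-KD iMNs, and 0.960 and 1.11 in i3Ns. *AP2M1* made up 42.6% of the summed level of the 3 subunits in SCR and 40.6% in *SMN*-KD iMNs (difference -1.97 points, SE 0.71), and 44.6% and 40.4% in i3Ns (-4.16 points, SE 0.65). The subunits outside the 10 genes were *AP2S1* and *AP2A2*. *AP2S1*, the sigma subunit, fell in i3Ns (log2 fold change -0.32, SE 0.065) and had a log2 fold change of 0.11 (SE 0.060) in iMNs, which did not pass. *AP2A2*, the other alpha subunit, was split over 3 identifiers, and its identifier in the main annotation fell in i3Ns (-0.19, SE 0.053) and stood at -0.0057 (SE 0.075) in iMNs. With the 3 identifiers summed, the log2 ratios were -0.19 and -0.11.

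The dynamins are GTPases that sever the vesicle neck. *DNM1* (chr9:128191655-128255248, plus strand) is the main form in neurons, *DNM2* (chr19:10718055-10833488, plus strand) is made in nearly all cells, and *DNM3* (chr1:171817887-172418466, plus strand) is found mainly in brain and testis. In i3Ns they moved in different directions. *DNM1* fell by 16.3%, from 5724 to 4789 (log2 fold change -0.26, SE 0.068, DESeq2 adjusted p = 0.000364). *DNM3* rose by 21.5%, from 3945 to 4794 (0.28, SE 0.047, DESeq2 adjusted p = 9.94e-09), and *DNM2* rose by 7.40%, from 7168 to 7698 (0.10, SE 0.033, DESeq2 adjusted p = 0.00399). The call of *DNM2* was lost when fold changes were centred on the median gene. The log2 fold change of *DNM1* was 0.54 below that of *DNM3* in i3Ns (95% interval of the difference -0.70 to -0.38) and 0.36 below that of *DNM2* (-0.51 to -0.21).

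In iMNs none of the 3 dynamins passed. The derived means were 9766 and 8984 for *DNM1* (log2 fold change -0.12, SE 0.048, DESeq2 adjusted p = 0.0263), 4063 and 4180 for *DNM2* (0.04, SE 0.046, DESeq2 adjusted p = 0.501) and 8212 and 7717 for *DNM3* (-0.09, SE 0.047, DESeq2 adjusted p = 0.108). The log2 fold change of *DNM1* minus that of *DNM3* was -0.03 (95% interval -0.16 to 0.10) and minus that of *DNM2* was -0.16 (-0.29 to -0.03), and neither difference passed after adjustment over the 16 pairs of members compared. *DNM3*, the gene with the 3′-UTR match to the scrambled shRNA printed above, was higher after knockdown in i3Ns and had a value below 0 that did not pass in iMNs. The part of that match in either value was not tested.

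*DNM1* carries a limit of its own. The annotated pseudogenes *DNM1P46*, *DNM1P47* and *DNM1P51*, all on chromosome 15, were listed in both tables and took 14.6% of the summed mean normalized count of *DNM1* and its pseudogenes in iMNs and 26.7% in i3Ns. In i3Ns *DNM1P51* rose (log2 fold change 1.00, SE 0.096) and so did *DNM1P47* (0.75, SE 0.14), which also rose in iMNs (0.41, SE 0.12). Summed with them, *DNM1* had a log2 ratio of 0.04 in i3Ns, against -0.26 alone, and of -0.09 in iMNs, against -0.12 alone. The transcripts of *DNM1* share 20 of 806 distinct 31-base words with those of *DNM1P46*, 1 of 2293 with those of *DNM1P47* and 0 of 492 with those of *DNM1P51* in GENCODE 44, both strands counted. The annotation behind the deposited counts is not given in the sources used here, so how reads were divided among these genes could not be examined.

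The shares of the 3 dynamins in their summed level are given without a test between the cell types. Per kb of main transcript, *DNM1* accounted for 58.0% of the summed dynamin level in SCR iMNs, *DNM2* for 21.4% and *DNM3* for 20.6%. In *SMN*-KD iMNs the shares were 56.4%, 23.2% and 20.4%. In SCR i3Ns *DNM2* held the largest share, 46.2%, with *DNM1* at 41.7% and *DNM3* at 12.1%, and in *SMN*-KD i3Ns the shares were 50.0%, 35.1% and 14.8%. The difference for *DNM1* was -6.53 percentage points (SE 1.16) in i3Ns and -1.68 (SE 0.99) in iMNs. Ratios of *DNM2* to *DNM1* went from 0.368 to 0.412 in iMNs and from 1.11 to 1.42 in i3Ns. *DNM2* is also made outside neurons. In i3Ns, where *DNM2* rose, the mesenchymal, proliferation and glial marker sums given above were lower in *SMN*-KD than in SCR, and the pluripotency sum was higher. The part of such cells in the change of *DNM2* was not tested.

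**Figure D3:**
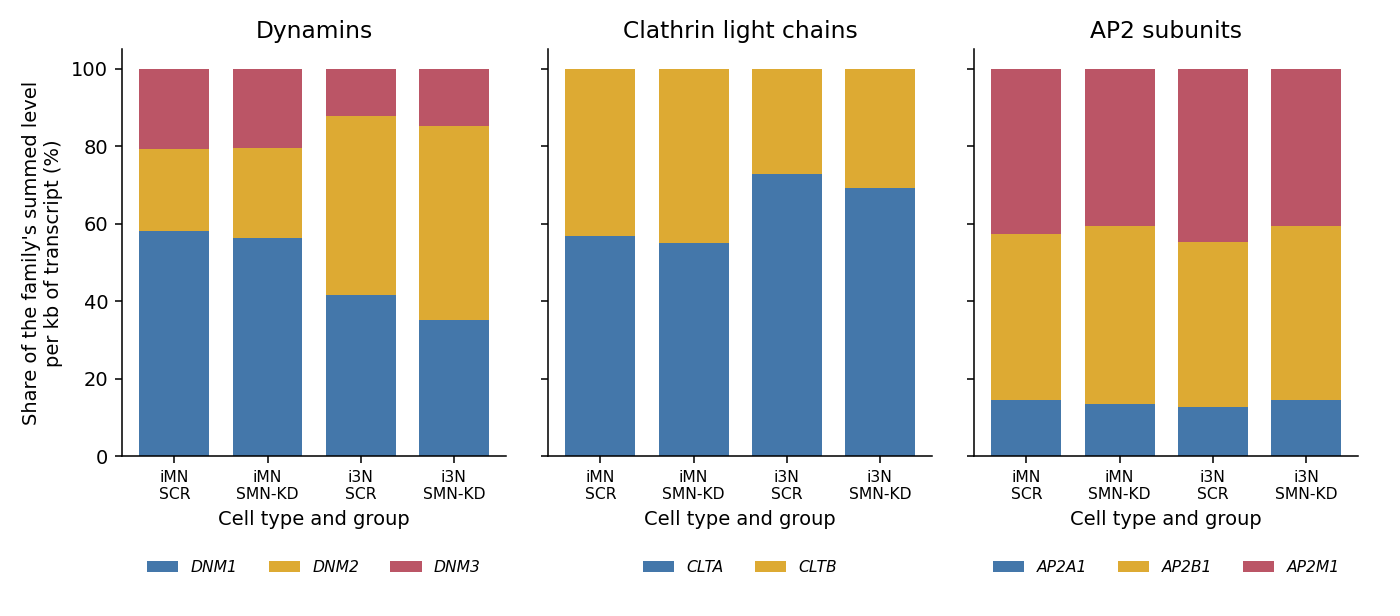
Share (y axis, %) of each gene in the summed level per kb of its family, for the dynamins, the clathrin light chains and the 3 AP2 subunits, in SCR and *SMN*-KD cells of each type (x axis); bars are stacked to 100%. The *DNM1* segment is 58.0% in SCR iMNs, 41.7% in SCR i3Ns and 35.1% in *SMN*-KD i3Ns, and the *CLTB* segment is 27.1% in SCR and 30.8% in *SMN*-KD i3Ns.

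*AMPH* (chr7:38383704-38631420, minus strand), which bridges dynamin to curved membrane and to clathrin and AP2, did not pass in either cell type. Its derived means were 4119 and 4316 in iMNs (log2 fold change 0.07, SE 0.045, DESeq2 adjusted p = 0.225) and 1707 and 1917 in i3Ns (0.17, SE 0.067, DESeq2 adjusted p = 0.0232). The intervals of the change were -1.46% to 11.4% and 2.52% to 22.9%. Its log2 fold change was 0.42 above that of *DNM1* in i3Ns (95% interval 0.24 to 0.61) and 0.19 above it in iMNs (0.06 to 0.32).

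Whether the genes changed differently in the 2 cell types was tested directly, by a Wald z of the difference between both log2 fold changes, adjusted over the 16093 genes of both tables. The change differed for 4 of the 10 genes, and for 34.0% of all genes. *AP2M1* differed by -0.29 in i3Ns relative to iMNs (SE 0.047, adjusted p of the Wald test = 7.06e-09), *AP2B1* by -0.24 (SE 0.040, adjusted p of the Wald test = 1.27e-08), *CLTC* by -0.20 (SE 0.037, adjusted p of the Wald test = 8.83e-07) and *DNM3* by 0.37 (SE 0.067, adjusted p of the Wald test = 2.11e-07). For the other 6 the test did not pass, and the 95% intervals of the difference were -0.21 to 0.05 for *CLTA*, -0.06 to 0.20 for *CLTB*, -0.30 to 0.03 for *DNM1*, -0.05 to 0.17 for *DNM2*, 0.0008 to 0.20 for *AP2A1* and -0.06 to 0.26 for *AMPH*. The passing of *AP2A1* and *CLTA* in iMNs and of *DNM1* and *DNM2* in i3Ns therefore does not separate the cell types for these genes.

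The wider endocytic machinery was followed through 7 lists of 91 genes, in which larger log2 fold changes stood than among the 10. Of these, 89 were tested in iMNs and 91 in i3Ns. In iMNs 29 fell, 16 rose and 0 were DEGs, with a median log2 fold change of -0.06. In i3Ns 38 fell, 17 rose and 6 were DEGs, with a median of -0.07. For comparison, 18.7% of all genes tested in iMNs fell, 17.1% rose and 3.34% were DEGs. The same shares for i3Ns were 25.7%, 22.8% and 13.8%. Among genes whose mean normalized count reached 1000, 53.7% passed in either direction in iMNs and 70.6% in i3Ns. The counts for single lists below are to be read beside these shares. Of the 94 list genes and members with a 3′-UTR and a mean normalized count of 100 or more, 18 held a match to the *SMN* shRNA alone in iMNs, of which 11 fell and 0 rose, and 7 held a match to the scrambled shRNA alone, of which 1 fell and 2 rose. In i3Ns 18 of 92 held the former, of which 7 fell and 2 rose, and 8 the latter, of which 4 rose and 1 fell. Of the genes with neither, 17 of 66 fell and 15 rose in iMNs, and 28 of 63 fell and 13 rose in i3Ns.

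Among 22 genes of coat assembly and cargo adaptors, 8 fell and 4 rose in iMNs, and 10 fell and 4 rose in i3Ns. *HIP1*, which links clathrin coats to actin, was the only DEG of this list whose mean normalized count reached 100. It fell from 12090 to 2959 in i3Ns (log2 fold change -2.03, SE 0.048) and also fell in iMNs (-0.44, SE 0.041). *DAB2*, an adaptor for lipoprotein receptors, had the lowest log2 fold change of the list in iMNs (-0.97, SE 0.21). *NECAP1*, an AP2-binding protein of the synapse, had the highest there, at 0.44 (SE 0.039), and *ITSN2*, a scaffold of endocytic sites, had the highest in i3Ns, at 0.45 (SE 0.078), and carried a match to the *SMN* shRNA. *DAB2*, *PACSIN3* and *AP1M2* were also DEGs in i3Ns, at mean normalized counts under 100, and fell; they were named after their values had been seen.

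Of 15 curvature and scission partners, 3 fell and 4 rose in iMNs, and 7 fell and 3 rose in i3Ns. Among genes of this list whose mean normalized count reached 100, *SH3GL2* had the highest log2 fold change in both cell types. It was 0.64 (SE 0.063) in iMNs and 0.69 (SE 0.10) in i3Ns. *SH3GL2* encodes endophilin A1, a partner of dynamin and synaptojanin, and carried a match to the scrambled shRNA. The lowest at such counts were *ARHGAP26* in iMNs (-0.84, SE 0.12) and *TRIP10* in i3Ns (-0.78, SE 0.18), both regulators of membrane curvature and actin. *ARHGAP26* held a match to either shRNA. Of 10 uncoating and phosphoinositide genes, 3 fell and 2 rose in iMNs, and 4 fell and 2 rose in i3Ns. *SYNJ1*, the lipid phosphatase synaptojanin that helps shed the coat, had the highest value in iMNs (0.40, SE 0.071). *INPP5B*, another phosphoinositide phosphatase, had the highest in i3Ns (0.60, SE 0.16). At such counts *PIP5K1B*, a kinase that makes the lipid AP2 binds, had the lowest in both (-0.81, SE 0.15, and -0.70, SE 0.23).

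The list of the phosphorylation cycle of endocytic proteins held the lowest list median in iMNs, -0.21, with 6 of 9 genes falling and 1 rising, and in i3Ns its median was -0.03, with 4 falling and 1 rising. *PPP3CB*, a catalytic subunit of calcineurin, fell in iMNs from 6645 to 3356 (log2 fold change -0.99, SE 0.044) and in i3Ns from 6820 to 4328 (-0.66, SE 0.047), while *PPP3CA*, the other main catalytic subunit in brain, rose in both cell types (0.51, SE 0.065, and 0.31, SE 0.058). *CDK5R1*, the p35 activator of the kinase CDK5, was a DEG in i3Ns, falling from 11606 to 4618 (-1.33, SE 0.043). Of the other subunits, *CLTCL1*, a second clathrin heavy chain, rose in iMNs (0.34, SE 0.089) and stood at 0.16 (SE 0.10) in i3Ns.

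Genes of the other adaptor complexes and of other dynamin-like GTPases served for comparison. Of the adaptor genes of AP1, AP3, AP4 and AP5, 6 of 22 fell and 4 rose in iMNs, and 8 of 23 fell and 6 rose in i3Ns, with medians of -0.03 and -0.04. *AP4S1*, a small subunit of AP4, had the lowest log2 fold change in both cell types among genes whose mean normalized count reached 100 (-0.57, SE 0.081, and -0.84, SE 0.10), and the highest were *AP3M2* in iMNs (0.44, SE 0.061) and *AP5S1* in i3Ns (0.76, SE 0.11). Of the dynamin-like GTPases, 3 of 8 fell and 0 rose in iMNs, and 3 of 9 fell and 1 rose in i3Ns. The lowest was *ATL2*, which shapes the endoplasmic reticulum (-0.51, SE 0.070, and -0.68, SE 0.066), and the gene that rose in i3Ns was *DNM1L*, which divides mitochondria (0.53, SE 0.049). *DNM1L*, like *DNM3*, had a 3′-UTR match to the scrambled shRNA and did not pass in iMNs (0.11, SE 0.048). The part of the match was not tested.

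**Figure D4:**
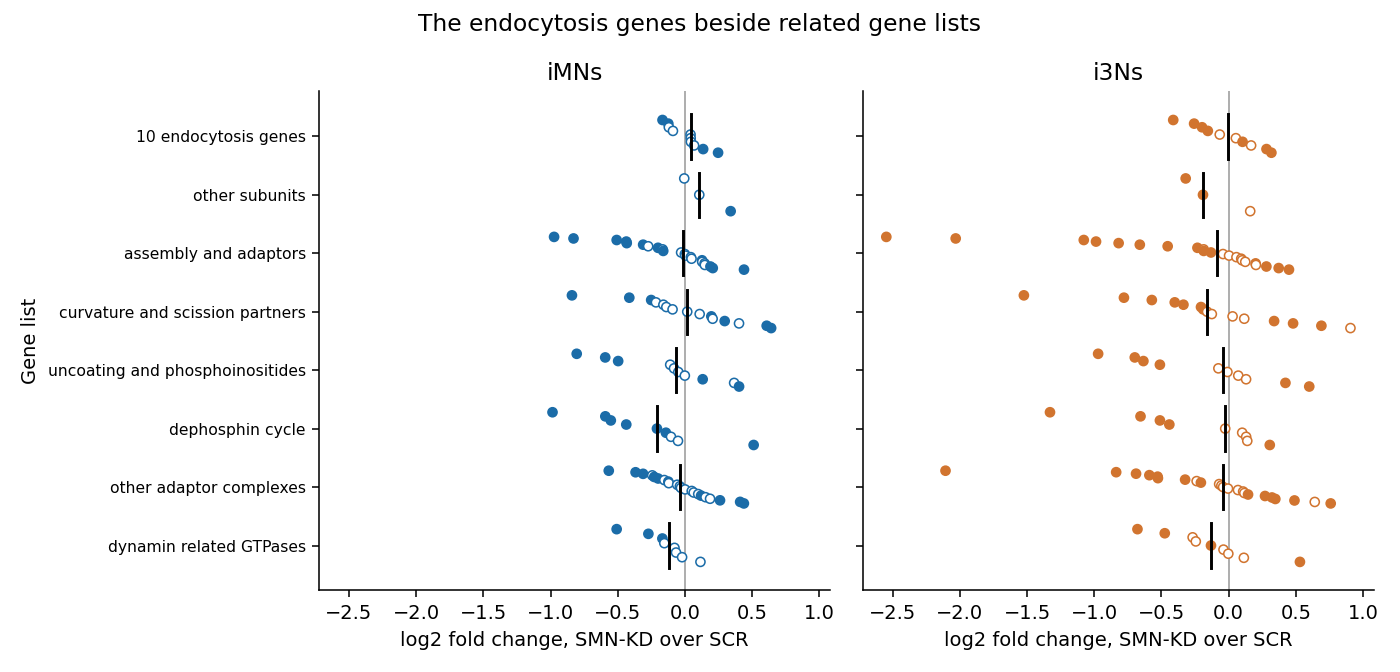
Log2 fold change (*SMN*-KD over SCR, x axis) of every tested gene of the 10 endocytosis genes and of 7 related lists (y axis) in iMNs (left) and i3Ns (right); filled points passed an adjusted p of 0.01, and black bars are list medians. The 10 genes lie between -0.17 and 0.25 in iMNs and between -0.41 and 0.32 in i3Ns, while *HIP1* in the list of assembly and adaptors lies at -2.03 in i3Ns.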

How the data were processed

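Per the labels, total RNA was depleted of ribosomal RNA and sequenced in paired-end reads. The authors removed adapters (fastp), estimated transcript abundance (Salmon) and tested *SMN*-KD against SCR in each cell type with DESeq2. Versions, transcript annotation and the filter on low counts are not given in the sources used here; the labels also list STAR and hg38. The deposited tables give, as a normalized signal, the mean, over all 6 libraries, of a gene's size-factor-scaled counts. They also hold the authors' log2 fold change with its standard error on the log2 scale, and the deposited p-value with its Benjamini-Hochberg adjustment. These comparison columns were used because they are the measurements in the tables, and no test was run on counts.

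From them, group means were derived (both groups have 3 libraries), differences between cell types were tested by a two-sided Wald z adjusted over 16093 genes, and 16 fixed pairs of members by the same z with covariance taken as 0, adjusted over the pairs. The log2 fold change over its SE was 0.984 to 1.01 times the z of the deposited p for the 10 genes. This did not hold for some genes with low counts, such as *NANOG* in i3Ns (log2 fold change 0.67, SE 1.30, DESeq2 adjusted p = 0.0164). Whether the deposited fold changes were shrunk towards 0 is not given in the sources used here. Derived means of such genes and the share of 34.0% that differed between cell types take these values as they stand. For shares of a family, the SE comes from those of the fold changes. Precision is that of the standard errors. P-values set a change only against the spread between these libraries as the fit estimated it. Positions, lengths and 3′-UTRs are from GENCODE 44 on GRCh38.

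The members, gene lists and tests were chosen with earlier results of these data known. The genes named are all members, and of the lists every DEG whose mean normalized count reached 100, otherwise the lowest and highest log2 fold change of each list and cell type above that count. Of the DEGs of the lists, 1 is counted but not reported here. Alternatives changed the p threshold, filter, centring, size of the standard errors, minimum fold change, transcript length and 3′-UTR. The steps were tested on simulated data. Scripts used Python 3.11.15, numpy 2.4.6, pandas 2.3.3, scipy 1.17.1 and matplotlib 3.10.9.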

Additional observations from a re-analysis of the deposited data

Results flagged for a closer look

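For 4 of the 10 genes, and for 34.0% of all genes, the effect of *SMN*-KD differed between i3Ns and iMNs in the Wald test of the difference. The log2 fold change in i3Ns minus that in iMNs was -0.20 for *CLTC*, 0.37 for *DNM3*, -0.24 for *AP2B1* and -0.29 for *AP2M1*. *CLTC*, *AP2B1* and *DNM3* had values of opposite sign in the 2 cell types, none of which passed in iMNs, and *AP2M1* fell in both. In i3Ns the summed level of mesenchymal markers went from 12296 to 2096 in the same comparison, and that of pluripotency markers from 1644 to 7258. The part of such cells in these differences was not tested.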

How the results depend on the processing

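The thresholds, the filter and the doubled standard errors leave a log2 fold change as it is, so no direction could change under them. Centring shifted the values by 0.0062 in iMNs and 0.013 in i3Ns, and no member changed direction. Of the member values in a single cell type under all these settings and the minimum fold changes, 127 kept their side of the threshold, 31 lost it and 2 gained it. For the difference between cell types 46 kept it and 4 lost it. A value that had not passed could not pass at a stricter threshold, so part of the values that kept their side was fixed in advance. At an adjusted p of 0.001, 1 gene fell and 1 rose in iMNs. With fold changes centred on the median gene, 1 rose in iMNs, since *CLTA* no longer passed. With standard errors doubled, 0 fell and 0 rose in iMNs, 2 fell and 1 rose in i3Ns, 0 differed between the cell types, 2 of the 11 pair differences still passed, and of the list genes 12 fell and 7 rose in iMNs and 22 fell and 7 rose in i3Ns. With a minimum absolute log2 fold change of 0.25, 0 fell and 0 rose in iMNs and 2 fell in i3Ns, and with a minimum of 1 all 4 counts were 0. With the longest transcript as length, 2 of 10 genes kept their place in the order of levels in iMNs. Summing *DNM1* with its pseudogenes, an alternative chosen after seeing the data, turned its log2 ratio in i3Ns from -0.26 to 0.045; the cause was not tested. The test between cell types already took p from fold change over standard error, so that alternative gave it no second value.

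No paired analysis was possible because the tables hold no value per library. For the same reason no replicate was left out, and whether 1 library decides a value could not be examined.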
